A study of Mus musculus with 56 samples.

Results

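The knockout effect of HuR on RNA held by tagged ribosomes in gastrocnemius muscle of female mice was described in 14 of the 56 libraries of the series, chosen by the sex, genotype and RNA type in their labels. The 7 mice of the knockout genotype carried a floxed Elavl1 gene, Cre recombinase under the Mlc1f promoter and a GFP-tagged L10A ribosomal protein switched on by Cre. The 7 control mice carried the same Cre and tagged L10A and are labelled control, with no floxed Elavl1 named for them. All mice were 20 to 22 weeks old. The Mlc1f promoter is active in skeletal muscle fibres, so Elavl1 loss and the ribosome tag were both limited to cells in which that promoter had been active, and other cells of the muscle kept Elavl1 and carried no tag. The other libraries of the series come from males and from total RNA of whole muscle homogenates, and their values are given beside the female ribosomal ones. The male ribosomal libraries also share the fit that gave every call, and male control libraries of both RNA types sort genes into classes.

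HuR, the protein encoded by Elavl1, binds AU-rich and U-rich stretches in mRNAs, mostly in 3′ untranslated regions, and is best known for changing how long an mRNA lasts and how well it is translated. In muscle cells it is known to bind the mRNAs of the myogenic factors Myod1 and Myog and of the cell cycle inhibitor Cdkn1a. Pulling down tagged ribosomes gives the RNA that fibre ribosomes hold, together with whatever untagged RNA comes down with them.

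Counts assigned to genes, in units of M (the M of counts-per-million, CPM), came to 0.491 to 1.21 M in the knockout libraries (median 0.937) and 0.423 to 3.06 M in the control libraries (median 1.59). Reads outside genes made up 6.53 to 12.5% of reads in knockouts and 5 to 10% in controls. Control libraries 18 and 19 stood apart from the other 5 controls: they held 0.575 and 0.423 M counts with 9.31 and 10% of reads outside genes, against 1.52 to 3.06 M counts and 5 to 5.46% in the other controls. Skeletal muscle transcripts were abundant in every library: the 12 genes that define fibres here, such as the actin gene Acta1, the creatine kinase gene Ckm and the fast myosin gene Myh4, summed to 111000 to 192000 CPM (TMM-scaled) in knockouts and 63300 to 194000 in controls. Each p-value measures the spread between these mice. In bulk RNA, fewer cells of a type and less RNA per cell cannot be told apart.

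Elavl1 itself (ENSMUSG00000040028.11) ranged over 79.1 to 138 CPM in knockouts (median 104) and 65.6 to 107 CPM in controls (median 87.6). The groups overlapped, and the log2 difference was 0.27 (standard error 0.149, edgeR adjusted p = 0.206). Reads come from the 3′ end of transcripts and the labels do not name the floxed exons, so a count here can come from sequence that the deletion leaves in place, and then checks nothing about the deletion. The groups are called knockouts as their labels call them.

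The 3′ untranslated region of Elavl1 is shown because it holds a run of copies of the AU-rich element that HuR is known to bind. Of its 4218 bases, positions 3794 to 3848 hold 8 copies of the nonamer TTATTTATT, which is marked in capitals. Copies 1 to 4 overlap in 1 run, copies 6 to 8 overlap in another, and copy 5 stands alone between them. The first and last copies, from GENCODE transcripts of GRCm38 and written with T for U, read as follows, with 10 bases on each side.
Elavl1 copy 1: gtcatgaaaaTTATTTATTtatttattta
Elavl1 copy 8: gtttatttatTTATTTATTacttgtgagt
Among the 24 genes described first below, Tanc1 and Ptp4a3 hold the same nonamer, Tanc1 once at bases 1485 to 1493 of 2026 and Ptp4a3 at bases 1484 to 1492 and 1646 to 1654 of 1852.
Tanc1: ttactatggcTTATTTATTgttttcctta
Ptp4a3 copy 1: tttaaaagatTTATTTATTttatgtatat
Ptp4a3 copy 2: gcccaaagatTTATTTATTatacataagt
Both genes were lower in knockouts, with values given below. Over all tested genes with a 3′ untranslated region to search, 632 of 8613 (7.34%) hold the nonamer. A match of letters is a description and not a binding site.

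Of 9098 genes tested, 1533 changed, or 16.8%, at an adjusted p under 0.05 by edgeR's quasi-likelihood test. They were split evenly, with 768 higher (8.44%) and 765 lower (8.41%). Rises were larger than falls: 356 of the higher genes and 145 of the lower ones changed by more than 1 on the log2 scale. The middle 50% of all genes lay between −0.29 and 0.26, with a median of −0.02. For 233 genes (2.56%) the 7 knockouts did not overlap the 7 controls. In 100 of them (1.1%) all knockouts lay above all controls, and in 133 (1.46%) all lay below. Of these 233 genes 230 were called. Of the 1533 genes, 280 were also called in male ribosomal RNA, where 8.96% of genes were called, and 266 of the 280 had the same sign.

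The genes described next are the 12 higher and 12 lower ones with the lowest p among those whose groups did not overlap. That they do not overlap is how they were chosen. Mss51 encodes a mitochondrial zinc-finger protein found mainly in skeletal muscle, and it had the lowest p of all. It held 279 to 568.4 CPM in knockouts (median 424), against 58.7 to 109 CPM in controls (median 105), a log2 difference of 2.11 (standard error 0.161, adjusted p = 4.79e-11). Even the lowest knockout held more than every control by a wide gap. Mss51 also rose in total RNA of the same females, by 1.75 (adjusted p = 0.000138), and in male ribosomal RNA, by 1.30 (adjusted p = 1.75e-07). The difference between the sexes was itself called (0.80, adjusted p = 0.0317).

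Genes of signalling and the cytoskeleton were among the others that rose. Rock1, a protein kinase that acts on actomyosin, held 70.5 to 117 CPM in knockouts (median 95.1), against 28.3 to 39.3 CPM in controls (median 36.0), with a log2 difference of 1.46 (standard error 0.146, adjusted p = 1.83e-08). In total RNA Rock1 held 167 to 287 CPM in knockouts and 160 to 187 CPM in controls (0.30, adjusted p = 0.124), and the effect was larger in ribosomal than in total RNA by 1.10 (adjusted p = 0.00106). Pdgfb, a growth factor chain, held 35.5 to 71.7 CPM in knockouts, against 11.8 to 28.6 CPM in controls (1.4, adjusted p = 1.13e-06). Both genes had nearly the same effect in male ribosomal RNA, 1.4 for Rock1 and 1.36 for Pdgfb. Tppp2, of the tubulin polymerization-promoting family, held 14.1 to 38 CPM in knockouts and 3.44 to 9.25 CPM in controls (2.49, adjusted p = 2.74e-08). Nrd1, the metallopeptidase nardilysin, held 136 to 193 CPM in knockouts and 56.0 to 104 CPM in controls (1.17, adjusted p = 6.41e-07). The ubiquitin-system protein gene Trim44 rose by 1.31 (adjusted p = 3.63e-06) and Metrn, which encodes the secreted protein meteorin, rose by 2.17 (adjusted p = 7.63e-07). Atcayos, annotated as antisense to Atcay, rose by 1.22 (adjusted p = 1.47e-06); how the counting used strand is not given in the sources used here, so its reads cannot be told apart from those of Atcay.

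The 4 remaining genes that rose belong to RNAs of the matrix, the slow fibre and the imprinted locus of H19. H19, an imprinted long non-coding RNA that is abundant in developing muscle, held 168 to 440 CPM in knockouts (median 295), against 61.3 to 96.2 CPM in controls (median 80.3), a log2 difference of 1.88 (standard error 0.187, adjusted p = 1.83e-08). In total RNA of the same females H19 differed by 0.40 (edgeR adjusted p = 0.278). Its effect was larger in ribosomal than in total RNA by 1.41 (edgeR adjusted p = 0.00261). The slow myosin heavy chain gene Myh7 held 109 to 478 CPM in knockouts (median 256), against 48.6 to 103 CPM in controls (median 73.4). Its log2 difference was 2.03 (adjusted p = 3.63e-06), with the groups separated by only a few CPM. Myh7 differed by 0.26 in total RNA (edgeR adjusted p = 0.534), and the effect was larger in ribosomal RNA by 1.71 (edgeR adjusted p = 0.00406). Fn1, the fibronectin gene, held 35.2 to 121 CPM in knockouts and 9.83 to 18.4 CPM in controls (2.33, adjusted p = 3.55e-08). Col1a2, a chain of type I collagen, held 72.9 to 242 CPM in knockouts and 24.3 to 58.7 CPM in controls (1.98, adjusted p = 1.56e-06). For Fn1 and Col1a2 the highest knockout was library 5, which was also highest for the summed matrix and mitochondrial RNA described below.

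Among genes that fell, Tanc1, a scaffold protein of postsynaptic sites, had the lowest p. It held 15.5 to 30.2 CPM in knockouts (median 18.3), against 36.7 to 80.8 CPM in controls (median 79.6), a log2 difference of −1.93 (standard error 0.176, adjusted p = 3.04e-09). Of the controls, 6 lay within 75.7 to 80.8 CPM and library 19 alone was lower. In males the log2 difference was −1.93 as well (adjusted p = 1.35e-09). Spns2, which exports sphingosine-1-phosphate from cells, held 7.55 to 19 CPM in knockouts (median 11), against 29.4 to 48.1 CPM in controls (median 42.4), and differed by −1.91 (adjusted p = 4.89e-08) in females and −1.69 in males. Ptgr2, a prostaglandin reductase, held 26.6 to 47.8 CPM in knockouts (median 32.5), against 83.8 to 137 CPM in controls (median 98.5), a difference of −1.52 (adjusted p = 3.92e-08). Ptgr2 was the 1 gene of these 12 whose fall differed between RNA types: it was −0.53 in total RNA, smaller by 1.04 than in ribosomal RNA (adjusted p = 0.00319).

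The other 9 genes of the 12 that fell have varied roles. Cdkn1a, the inhibitor of cyclin-dependent kinases and a known HuR target, held 43.4 to 166 CPM in knockouts (median 76.1), against 228 to 361 CPM in controls (median 306), a log2 difference of −1.90 (standard error 0.225, adjusted p = 4.15e-07). Knockout 9 was the highest of its group and still below every control. Fkbp5, a co-chaperone induced by glucocorticoids, held 3.67 to 19.5 CPM in knockouts (median 8.87), against 44.0 to 65.9 CPM in controls (median 45.3), and differed by −2.17 (adjusted p = 8.44e-06). Gpx3, the secreted glutathione peroxidase, held 255 to 393 CPM in knockouts and 445 to 797 CPM in controls (−1.11, adjusted p = 5.63e-06). Rhou, an atypical small GTPase, held 12.8 to 39.0 CPM in knockouts and 52.6 to 104 CPM in controls (−1.50, adjusted p = 4.09e-07). The phosphatase gene Ptp4a3 held 45.3 to 81.8 CPM in knockouts and 106 to 181 CPM in controls (−1.14, adjusted p = 1.26e-06). The others were Tango2, named for transport and Golgi organization (−1.64), the small GTPase gene Rasd2 (−1.31), the U2AF-related splicing gene Zrsr1 (−0.88) and Zfand5, a zinc-finger protein that stimulates the proteasome (−0.79).

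**Figure D1:**
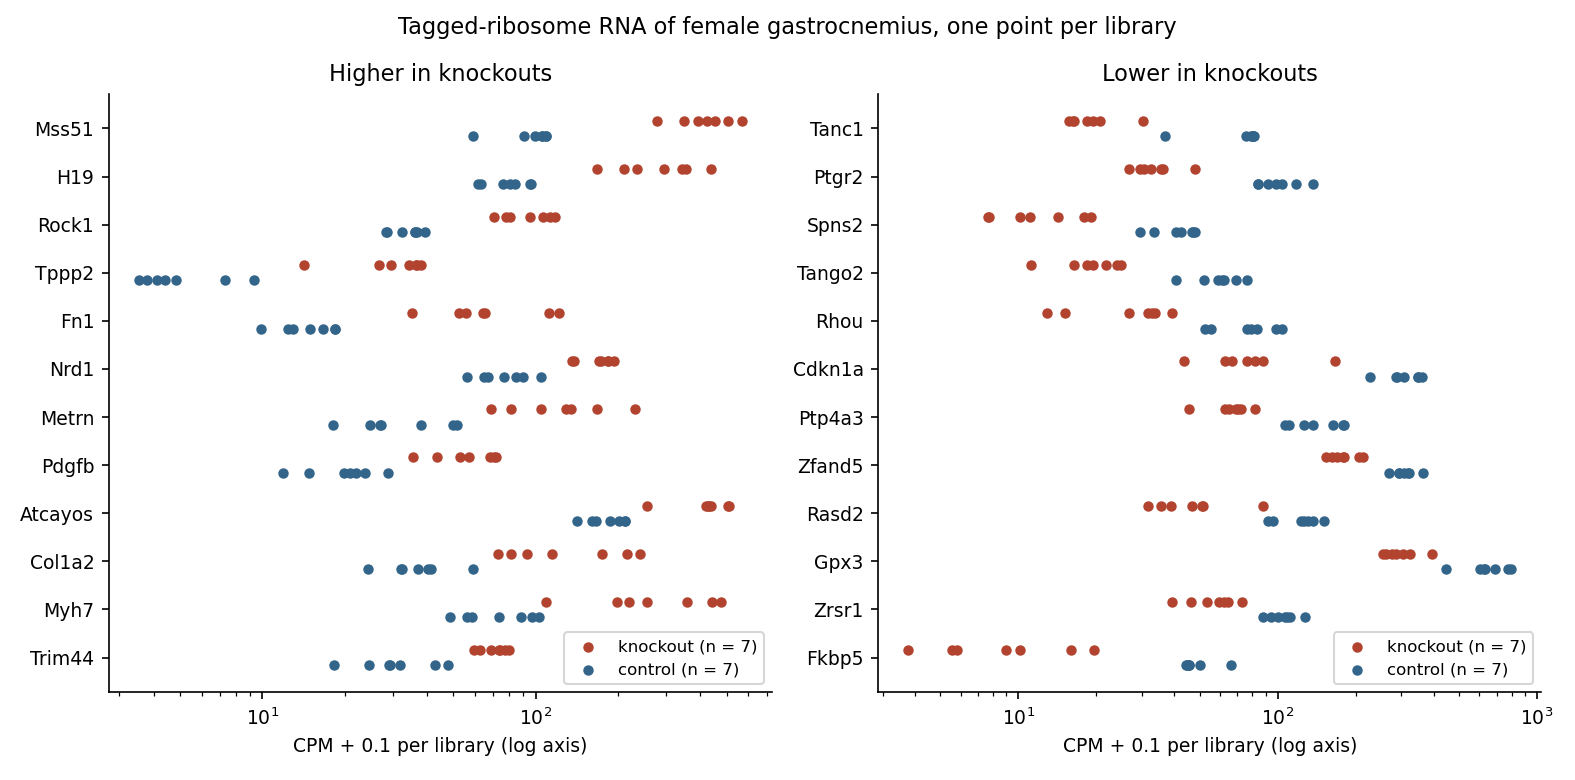
CPM of each library, plus 0.1, on a log axis for the 12 genes higher (left) and the 12 lower (right) in knockouts, with 1 point per library and 7 libraries per group. The groups do not overlap for any of the 24 genes by the rule that chose them; Mss51 sits between 279 and 568.4 CPM in knockouts, against 58.7 to 109 in controls, and Cdkn1a between 43.4 and 166, against 228 to 361.

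The 24 genes were also read in the other contrasts. Of the 12 higher genes 9 were called with the same sign in male ribosomal RNA and 7 in female total RNA, where 8.49% of genes were called. Of the 12 lower genes 8 were called in males and 12 in female total RNA, all with the same sign. The effect differed between ribosomal and total RNA for 6 of the 12 higher genes, against a background of 2.56%, and for 1 of the 12 lower genes. It differed between the sexes for 4 of the higher and 6 of the lower genes, against 3.43% of all genes, and the higher and lower sets were not tested against each other. The female ribosomal contrast that chose the 24 genes is also part of both differences. Shares above the background follow in part from that choice. Ribosomal and total libraries came from the same mice, and the male and female ribosomal libraries shared 1 fit.

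Fatty acid breakdown was the metabolic pathway with the most falls. Of 20 beta-oxidation genes tested, 15 fell, 5 did not pass and 0 rose, with a median log2 difference of −0.54, beside 8.41% of all genes lower and a median of −0.02. Acat1, the thiolase of ketone and acetyl-CoA metabolism, held 102 to 157 CPM in knockouts (median 128), against 184 to 230 CPM in controls (median 215), a difference of −0.73 (standard error 0.107, adjusted p = 1.15e-05). Acaa2, which cleaves the last acetyl-CoA units in mitochondria, held 77.0 to 95.0 CPM in knockouts and 125 to 184 CPM in controls (−0.82, adjusted p = 3.82e-05). Hadhb, the thiolase part of the trifunctional protein, held 83.0 to 116 CPM in knockouts and 125 to 172 CPM in controls (−0.67, adjusted p = 4.45e-05). All knockouts lay below all controls for 9 of the 20 genes, beside 1.46% of all genes. Mlycd, malonyl-CoA decarboxylase, which relieves the block on fatty acid entry, fell by 1.18 on the log2 scale (adjusted p = 3.6e-05) with overlapping groups. The list had 13 genes lower and 0 higher in female total RNA (median −0.38; 4.7% of all genes lower) and 3 lower in male ribosomal RNA (median −0.23), and the sex difference was called for 5 of the 20 genes.

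Among genes of lipid droplets and PPAR targets, 7 of 12 tested fell, 5 did not pass and 0 rose, with a median of −1.03, beside 8.41% of all genes lower. Fitted on the 14 libraries alone, 4 of the 9 that passed the filter fell (median −0.57). Pnpla2, the lipase that starts triglyceride breakdown, held 21.9 to 39.0 CPM in knockouts and 36.7 to 101 CPM in controls (−1.38, adjusted p = 1.68e-05). Plin5, which coats lipid droplets at mitochondria, held 29.3 to 62.1 CPM in knockouts and 50.5 to 201 CPM in controls (−1.34, adjusted p = 0.000841). Pdk4, the kinase that holds back pyruvate oxidation, held 37.9 to 114 CPM in knockouts (median 81.3), against 71.4 to 516 CPM in controls (median 240), and differed by −1.70 (adjusted p = 0.001). Pdk4 differed by 0.34 in males (adjusted p = 0.573), and the sex difference of −2.05 was called (adjusted p = 0.0158). Acot2, a mitochondrial acyl-CoA thioesterase with a close copy in Acot1, fell by 2.08 on the log2 scale.

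Other parts of oxidative metabolism moved less, beside 8.41% of all genes lower and 8.44% higher. Of 17 citric acid cycle genes 4 fell and 0 rose (median −0.21), among them Idh2, an isocitrate dehydrogenase (−0.46, adjusted p = 0.002), and the succinate dehydrogenase subunit gene Sdhc (−0.56, adjusted p = 0.00211). Of 46 nuclear-encoded subunits of oxidative phosphorylation 9 fell and 0 rose (median −0.17). Atp5c1, a subunit of ATP synthase, differed by −0.56 (adjusted p = 0.0014). Of 12 regulators of mitochondrial genes, Mss51 rose and 3 fell. These were the nuclear receptor genes Esrrg (−1.67, adjusted p = 0.000352) and Esrra (−0.56, adjusted p = 0.00885) and their coactivator gene Ppargc1a (−0.70, adjusted p = 0.0447). Esrrg held 2.71 to 6.50 CPM in knockouts and 9.47 to 20.6 CPM in controls, with no overlap.

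Genes of glucose handling were called in both directions. Of 13 glycogen genes 4 fell and 0 rose (median −0.24), beside 8.41% of all genes lower. Ppp1r3a, which targets phosphatase to glycogen, differed by −0.58 (adjusted p = 0.0013), and Ugp2, which makes UDP-glucose, by −0.39 (adjusted p = 0.00825). Ugp2 held 499 to 624 CPM in knockouts and 634 to 973 CPM in controls; in males its difference was 0.34 (adjusted p = 0.0286), and the sexes differed by −0.73 (adjusted p = 0.00609). Of 16 genes of insulin signalling 2 rose and 4 fell, beside 16.8% of all genes called. Tbc1d4, which holds back glucose transporter vesicles, held 27.1 to 78.0 CPM in knockouts and 66.1 to 117 CPM in controls (−1.15, adjusted p = 2.12e-05), while its relative Tbc1d1 rose by 0.64 (adjusted p = 0.0257). Of 13 glycolysis genes the lactate dehydrogenase gene Ldha rose (0.37, adjusted p = 0.0461), and Gapdh and Pgk1 fell by 0.98 and 1.22. Gapdh stood at 24.4 ± 5.99 CPM in knockouts and 45.0 ± 24.1 CPM in controls (SD, n = 7 each). Both genes have many near-identical processed copies in the genome that can split their reads, so their values are uncertain.

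Most slow fibre genes and some fast ones rose. In the slow fibre list 10 of 12 genes rose and 0 fell (median 0.63), beside 8.44% of all genes higher, while in males 3 rose and 1 fell (median 0.35), and in female total RNA 1 rose (median 0.26). Tnnc1, the calcium-binding troponin of slow fibres, held 704 to 1458 CPM in knockouts (median 987), against 309 to 661 CPM in controls (median 542), a difference of 1.01 (standard error 0.169, adjusted p = 6.66e-05). The slow tropomyosin gene Tpm3 rose by 0.88 (adjusted p = 0.000228) and Atp2a2, the slow calcium pump, by 0.60 (adjusted p = 0.000564). Of 15 fast fibre genes 4 rose, 11 did not pass and 0 fell (median 0.29); the slow and fast lists were not tested against each other. These were the myosin heavy chain genes Myh1 (1.45, adjusted p = 3.31e-05), Myh2 (1.19, adjusted p = 0.00026) and Myh4 (0.88, adjusted p = 0.0191), and Casq1, the calcium store protein of fast fibres (0.73, adjusted p = 0.0003). The myosin heavy chain genes are close paralogs in a cluster. The fast list depended on controls 18 and 19: without them 11 of 15 rose (median 0.72), and set against these 2 controls alone 0 of 15 were called (median −0.30).

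Among the 12 fibre-defining genes, the 4 that rose were the 4 with the longest annotated transcripts, a pattern noticed after the values were seen. The split depended on controls 18 and 19: without them 9 of 12 rose (median 0.68), and against these 2 controls alone 1 rose (median −0.15). Ttn, the giant spring protein titin, has an annotated transcript of 106824 bases and held 8137 to 17160 CPM in knockouts (median 11910), against 2920 to 6987 CPM in controls (median 5882), a difference of 1.22 (adjusted p = 4.09e-05). Neb, the thin filament ruler nebulin, with 22489 bases, differed by 0.62 (adjusted p = 0.00374), and Myh1 and Myh4 have 6081 and 6016 bases. The other 8, from Atp2a1 with 3477 bases to Tnni2 with 732, were not called and ranged over −0.24 to 0.51. The 4 that rose also had the lowest log2 ratios of ribosomal to total RNA in male controls. These were −1.07 for Ttn, −1.02 for Neb, −0.80 for Myh1 and 0.14 for Myh4, against 0.75 to 1.86 in the other 8. Length and this ratio cannot be told apart among these genes. In total RNA of the same females Ttn differed by −0.27 (adjusted p = 0.615) and Neb by −0.16 (adjusted p = 0.586). Over all genes the shift with length was small. Transcripts over 6000 bases had 10.6% higher and 5.09% lower of 1139 genes (median 0.06), and those up to 1500 bases had 7.32% higher and 11.5% lower of 1420 genes (median −0.05). Among genes with this ratio above −1, transcripts over 6000 bases had 6.55% higher and 6.33% lower of 885 genes (median −0.01). Those up to 1500 bases had 5.59% higher and 12.2% lower of 1341 genes (median −0.08). Xirp2, a long actin-binding repeat protein of muscle attachment sites, held 1536 to 1743 CPM in knockouts, against 584 to 994 CPM in controls (1.02, adjusted p = 1.32e-05). It differed by −0.06 in total RNA (adjusted p = 0.834).

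Genes that couple excitation to contraction and anchor the membrane were called in both directions, beside 16.8% of all genes called. Of 17 coupling genes 2 rose and 1 fell, close to that share. These were Bin1, which shapes the transverse tubules (0.50, adjusted p = 0.00904), Jph2, which ties them to the calcium store (0.42, adjusted p = 0.0454), and Mrln, the micropeptide that restrains the calcium pump (−0.31, adjusted p = 0.0496). Of 14 dystrophin complex genes Utrn and Dmd rose and 3 fell. Utrn, the utrophin gene and a reported HuR target, held 16.8 to 77.0 CPM in knockouts and 11 to 26 CPM in controls (1.23, adjusted p = 0.000541), and Dmd, the dystrophin gene, differed by 0.63 (adjusted p = 0.029). At the neuromuscular junction 3 of 10 genes rose and 0 fell, beside 8.44% of all genes higher. They were the acetylcholinesterase gene Ache (1.56, adjusted p = 0.000228), the adhesion gene Ncam1 (1.32) and the receptor subunit gene Chrna1 (0.53). Ache held 8.67 to 15.5 CPM in knockouts and 0 to 7.10 CPM in controls, and it also rose in males (1.31, adjusted p = 8.85e-05).

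Of 12 myogenic factors 5 fell and Mef2c rose (median −0.41, and 0.23 in males), beside 8.41% of all genes lower. Under each of 3 covariates described below 2 of the 12 were lower, and against controls 18 and 19 alone 1 was lower and the median was 0.21. Myf6, the myogenic factor that persists in adult fibres, held 27.6 to 56.6 CPM in knockouts (median 45.3), against 58.7 to 144 CPM in controls (median 81.4), a difference of −1.09 (standard error 0.194, adjusted p = 0.000165). The sex difference of Myf6 was −1.38 (adjusted p = 0.00319), with a male difference of 0.29 (adjusted p = 0.297). Myod1 differed by −1.05 (adjusted p = 0.0145), with 6.66 to 27.1 CPM in knockouts and 7.10 to 37.8 CPM in controls, and against controls 18 and 19 alone its sign turned (0.60, adjusted p = 0.694). Maf, a transcription factor of fast fibres, held 585 to 1027 CPM in knockouts and 972 to 1979 CPM in controls (−0.66, adjusted p = 0.00424). Mef2c, which drives contractile genes, held 1023 to 1340 CPM in knockouts and 818 to 975 CPM in controls, a smaller difference of 0.38 (adjusted p = 0.0126) without overlap.

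Glucocorticoid-responsive genes, atrophy genes and p53 targets had falls and almost no rises, beside 8.41% of all genes lower and 8.44% higher. Of 15 glucocorticoid-responsive genes 6 fell and 0 rose (median −0.76). Cebpd, an inflammatory transcription factor, held 0 to 9.51 CPM in knockouts and 11 to 36.5 CPM in controls (−1.77, adjusted p = 0.000989), and Klf9 differed by −0.63 (adjusted p = 0.00434). Set against controls 18 and 19 alone, 0 of the 15 were called. Of 19 atrophy and autophagy genes 7 fell and 0 rose (median −0.37), among them Bnip3, a receptor for removal of mitochondria (−0.71, adjusted p = 3.8e-05), and the atrophy ligase gene Fbxo32 (−0.90, adjusted p = 0.00494). Bnip3 held 89.6 to 139 CPM in knockouts and 169 to 208 CPM in controls, and its sex difference was called (−0.75, adjusted p = 0.00651). Of 13 p53 targets 5 fell and 1 rose (median −0.24); beside Cdkn1a, the nuclease gene Aen held 0 to 6.71 CPM in knockouts and 7.34 to 17.2 CPM in controls (−2.23, adjusted p = 7.22e-05). Of 20 antioxidant genes 7 fell and 0 rose (median −0.28), including Cat, the catalase gene, with 29.5 to 54.3 CPM in knockouts and 61.3 to 84.3 CPM in controls (−0.96, adjusted p = 0.000165). Of 11 polyamine genes 2 fell and 0 rose, close to the 16.8% of all genes called. Smox, spermine oxidase, fell by 1.24 (adjusted p = 6.88e-05) and Amd1, which has a close copy in Amd2, by 0.72 (adjusted p = 0.0426).

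Genes of protein synthesis and folding were called in both directions, beside 16.8% of all genes called. Of 41 cytosolic ribosomal protein genes 3 rose and 1 fell (median 0.20), of 30 mitochondrial ribosomal protein genes 1 rose and 5 fell (median −0.09), of 29 translation factor genes 2 rose and 5 fell (median −0.13), and of 30 proteasome genes 1 rose and 5 fell (median −0.13). The ribosomal protein count depended on controls 18 and 19: without them 16 of the 41 cytosolic genes rose and 3 fell (median 0.35), and against them alone 0 were called (median −0.02). The 19 cytosolic heat shock genes ranged over −0.81 to 0.63 (median 0.05) without a call by edgeR. Of 16 chaperone and stress genes of the endoplasmic reticulum 4 rose (median 0.22), among them Pdia6, a disulfide isomerase, with 95.0 to 143 CPM in knockouts and 66.3 to 86.4 CPM in controls (0.69, adjusted p = 2.01e-05). Of 15 immediate-early and mechanical stress genes 1 rose and 1 fell (median 0.29), and of 16 clock genes 1 fell (median −0.35).

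RNA-binding proteins and published HuR targets showed no shared direction. Of 14 AU-rich element binding protein genes Ybx1 rose (0.78, adjusted p = 0.00433) and 0 fell (median 0.03). Of 13 splicing regulators of muscle Rbfox1 fell (−0.77, adjusted p = 0.00011) and Ptbp1, the polypyrimidine tract binding protein gene, rose (1.09, adjusted p = 0.0177), and of 24 Srsf and Hnrnp genes Tra2a rose (0.71, adjusted p = 0.00424). Of 28 HuR targets named in the literature and tested, 5 rose and 7 fell (median 0.00, 16.8% of all genes called). Spns2 and Cdkn1a, given above, had the lowest p of them. The AU-rich nonamer was found in the 3′ untranslated region of 36 of 649 higher genes (5.55%), 56 of 737 lower genes (7.6%) and 540 of 7227 genes not called (7.47%), searched on the transcript strand, beside 7% of all coding genes of the annotation. The shorter motif ATTTA, which lies inside the nonamer, had a median of 1.11 copies per kilobase in higher genes, 1.5 in lower genes and 1.3 in genes not called. Median region lengths were 868, 996 and 1056 bases in the same order.

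**Figure D2:**
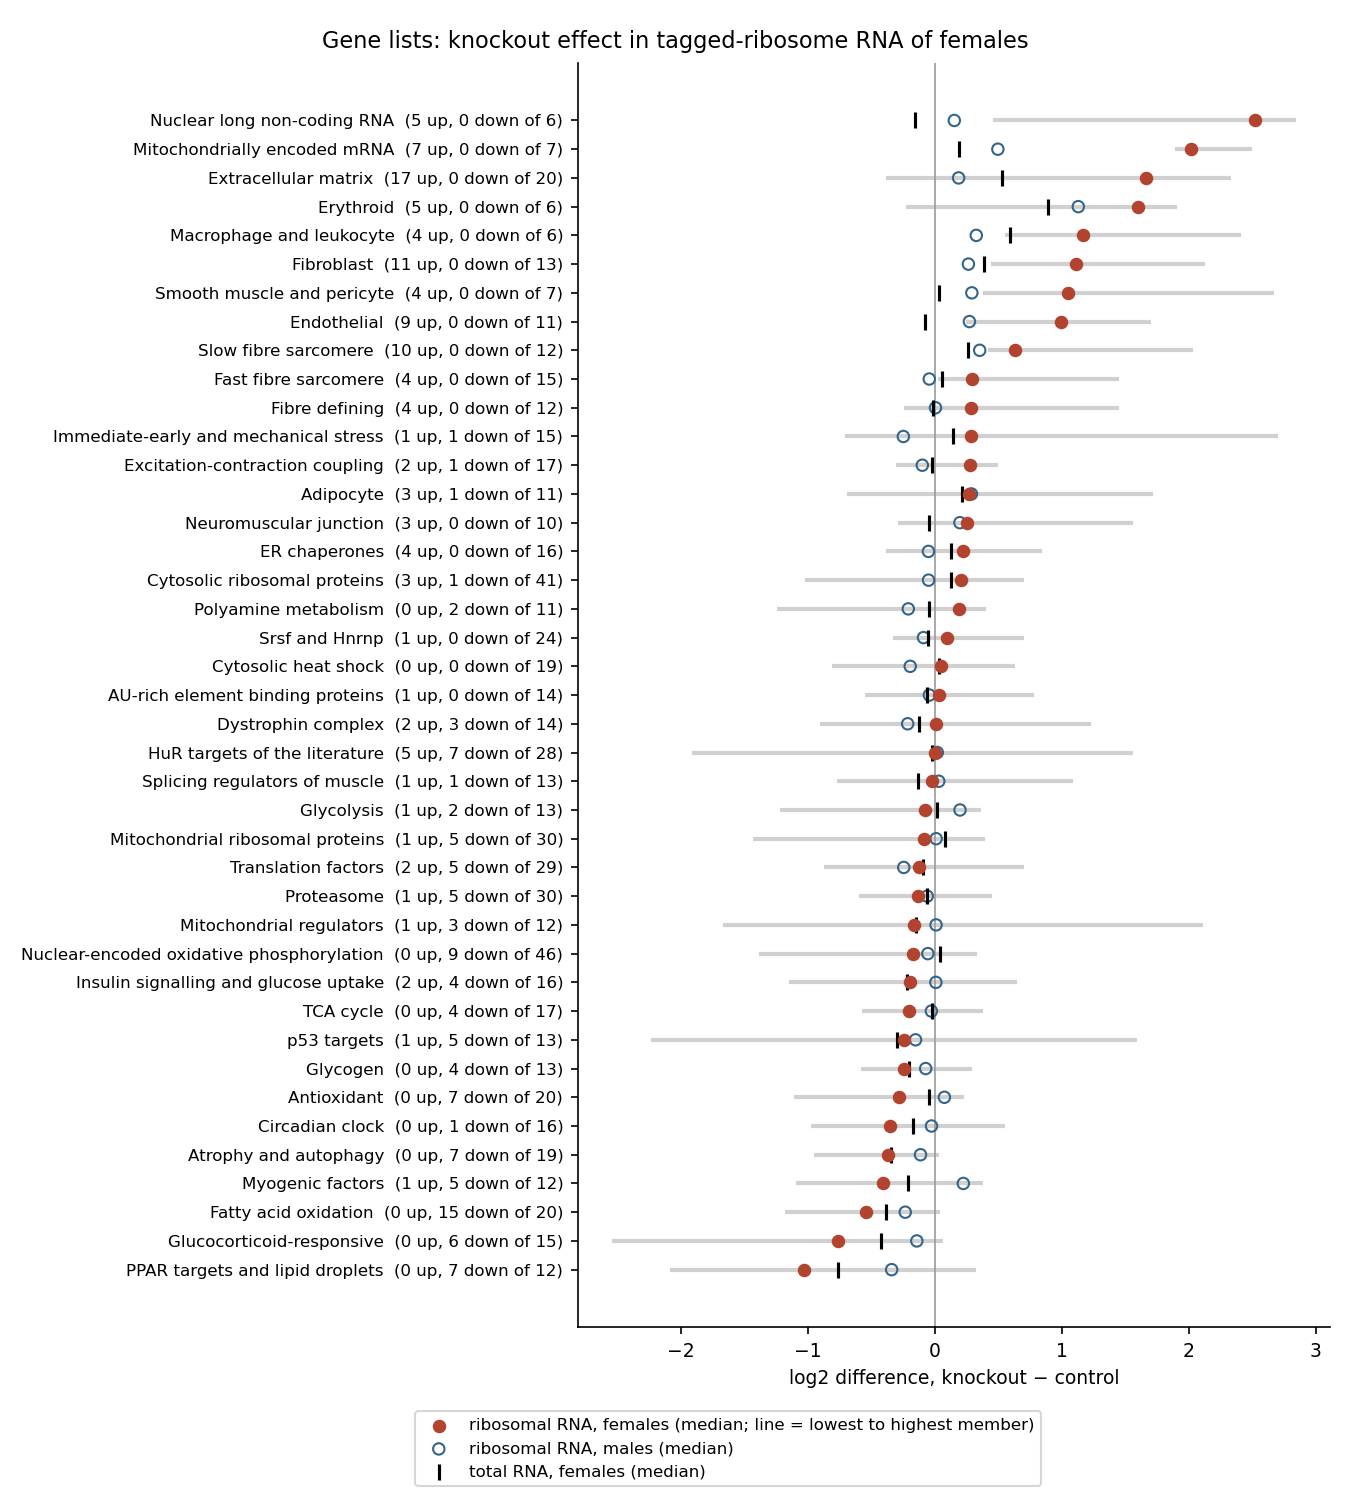
Median log2 difference, knockout minus control, of each gene list with at least 6 genes tested in female ribosomal RNA (filled points, with a grey line over the lowest to highest member), male ribosomal RNA (open circles) and female total RNA (black bars), with the count of members higher and lower at an adjusted p under 0.05. Nuclear RNAs, mitochondrial mRNAs and the extracellular matrix lie highest, and PPAR targets, glucocorticoid-responsive and fatty acid oxidation genes lie lowest.

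RNAs made outside fibres, in mitochondria or kept in the nucleus, which tagged fibre ribosomes are not known to translate, were higher in the knockouts in nearly every class measured. Summed mRNA of the mitochondrial genome, which mitochondrial ribosomes translate, held 4980 to 23900 CPM in knockouts (median 12300), against 1320 to 6230 CPM in controls (median 2310). The log2 difference was 1.99 (exact permutation test, two-sided, adjusted p = 0.00311 over 16 measures). Knockouts 5 and 12 were highest, knockout 10 alone lay within the controls, and controls 18 and 19 were the 2 highest controls. All 7 mitochondrial mRNAs tested rose, by 1.89 to 2.50, with mt-Nd4, a subunit of complex I, at 1646 to 7380 CPM in knockouts and 399 to 1828 CPM in controls. The other 6 mRNAs looked for did not pass the filter on low counts.

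Nuclear long non-coding RNAs were higher in knockouts as well, with the libraries in another order. Their sum held 683 to 5540 CPM in knockouts (median 2100), against 196 to 800 CPM in controls (median 361), a log2 difference of 2.21 (exact permutation test, adjusted p = 0.00311), with knockout 2 highest. Of 6 tested 5 rose. With the female knockouts left out of the filter on low counts 4 of the 6 passed, of which 3 rose. In the female controls alone 2 passed, of which 2 rose. Neat1, the scaffold of nuclear paraspeckles, held 99.4 to 330 CPM in knockouts and 40.7 to 89.9 CPM in controls (1.44, adjusted p = 8.83e-05). Xist, which coats the inactive X chromosome, held 5.87 to 91.7 CPM in knockouts and 1.84 to 8.09 CPM in controls (2.81, adjusted p = 0.000213). In total RNA of these mice Neat1 differed by −0.28 (adjusted p = 0.259) and Xist by −0.23 (adjusted p = 0.381).

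Transcripts of other cell types were higher too. Extracellular matrix genes summed to 786 to 2260 CPM in knockouts (median 1040), against 459 to 611 CPM in controls (median 521), and all 7 knockouts lay above all controls (log2 difference 1.28, adjusted p = 0.00186). The value of 0.00186 comes from the smallest p that the exact permutation test can give, 0.000583. Of 20 matrix genes 17 rose and 0 fell (median 1.66). With the female knockouts left out of the filter on low counts 19 passed, of which 16 rose. In the female controls alone 10 passed, of which 10 rose. The sums of fibroblast (1.07), macrophage and leukocyte (1.04), erythroid (0.93) and adipocyte (0.60) markers were also higher in all 7 knockouts than in every control, with the same adjusted p. Most of the adipocyte sum was Car3, a carbonic anhydrase that muscle fibres make as well, at 4612 ± 147 CPM in knockouts and 3125 ± 334 CPM in controls (SD, n = 7 each). Of 11 adipocyte genes tested 3 rose, Plin4 fell and 7 were not called (median 0.27). Those not called included Adipoq, Cfd, Plin1 and Cidec, so the sum does not show a rise of adipocyte markers as a set. The marker sums of Schwann cells (1.37, adjusted p = 0.00373), liver (1.07, adjusted p = 0.00311), tendon (0.94, adjusted p = 0.00311), smooth muscle (0.73, adjusted p = 0.00763), endothelium (0.59, adjusted p = 0.0319) and satellite cells (0.36, adjusted p = 0.036) were higher with some overlap. The share of reads outside genes was higher by 2.85 percentage points (adjusted p = 0.036). The fibre-defining sum (0.47, adjusted p = 0.0852) and the kidney sum (0.52, adjusted p = 0.4) did not pass, so 14 of the 16 measures passed and all 14 were higher in knockouts.

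Controls 18 and 19, which were close to the knockouts in depth and reads outside genes, were close to them in only some of these sums. Their mitochondrial mRNA (5270 and 6230 CPM) and nuclear RNA (800 and 745 CPM) were the 2 highest of the controls in each case. So were their fibre-defining sums (159000 and 194000 CPM), against 63300 to 92000 CPM in the other controls and 111000 to 192000 CPM in knockouts. Their matrix sums of 611 and 540 CPM lay among the 459 to 566 CPM of the other controls or close above, and below the lowest knockout at 786. Several defining markers were at or near 0 in both groups: of 17 macrophage and leukocyte markers 11, of 10 Schwann cell markers 6 and of 12 smooth muscle markers 5 did not pass the filter on low counts. Of 15 endothelial markers Pecam1 held 9.22 to 28.2 CPM in knockouts and 4.12 to 11 CPM in controls (1.38, adjusted p = 0.00396). In total RNA of the same mice the endothelial list had a median of −0.08 and the matrix list one of 0.53, with 12 of 20 matrix genes higher there (3.79% of all genes higher). Haemoglobin genes, whose near-identical copies share reads, rose in both RNA types, with Hbb-bt higher by 1.73 among ribosomal libraries (adjusted p = 5.7e-06) and by 0.93 among total libraries (adjusted p = 0.000804).

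**Figure D3:**
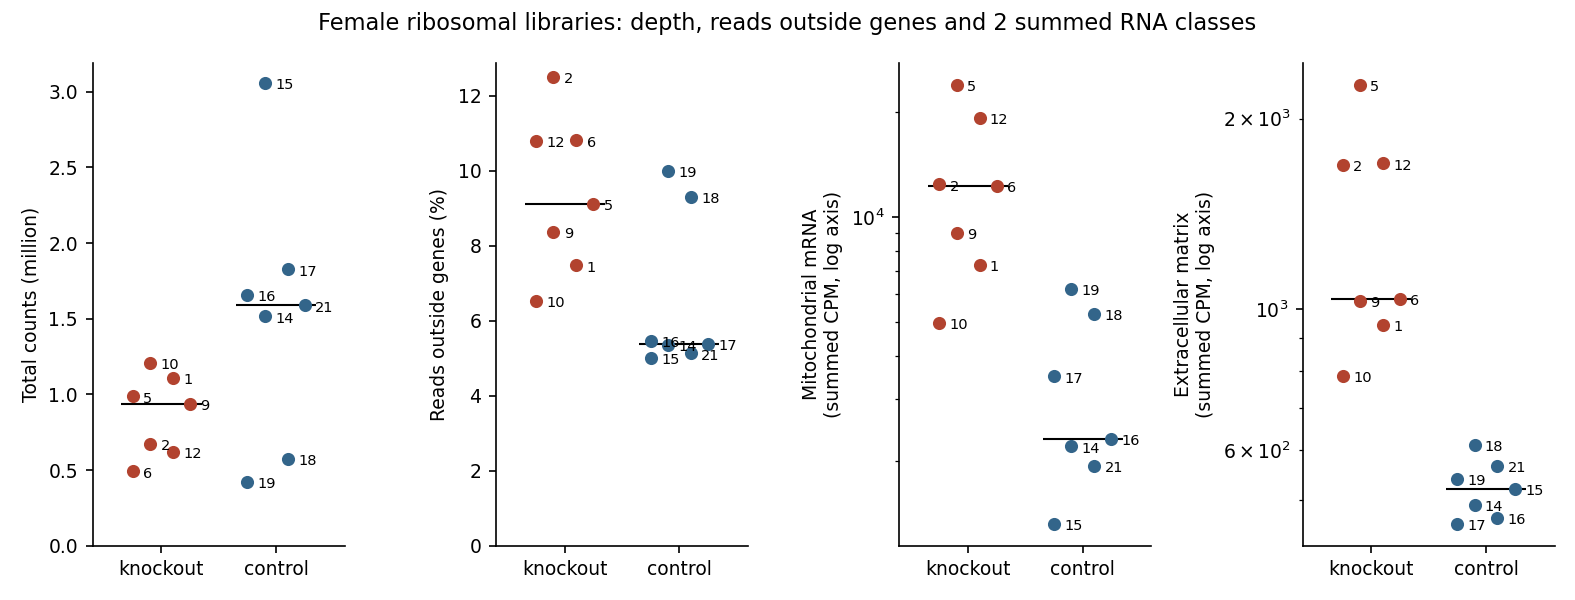
Total counts, percent of reads outside genes, and summed CPM of mitochondrial mRNA and of extracellular matrix genes (log axes for the sums) in the 7 knockout and 7 control ribosomal libraries of females, numbered by mouse, with bars at group medians. Controls 18 and 19 sit beside the knockouts in depth and reads outside genes, while all 7 knockouts lie at 786 CPM or more for the matrix sum, against at most 611 in controls.

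Male libraries, which share no library with the female contrast, gave an outside measure of how far each RNA is held by tagged ribosomes. Genes were classed by the log2 ratio of ribosomal to total RNA in male controls. Of 291 genes with a ratio at or below −2, that is, RNAs largely left behind when fibre ribosomes were pulled down, 146 rose in female knockouts (50.2%) and 0 fell, with a median of 0.97. A gene scarce on ribosomes can pass the filter on low counts through the knockouts in which it is high. In a check chosen after seeing the data, 254 of the 291 passed the same filter with the female knockouts left out, of which 122 rose and 0 fell (median 0.88), and 72 passed it in the female controls alone, of which 53 rose and 0 fell. The other 24 higher genes passed only with the knockouts, and a low level in controls leaves little room for a fall. In male knockouts 9 of the same 291 rose (median 0.25). The male ribosomal controls that define the class are also part of that male contrast, so for males the class is not an outside measure. Between −2 and −1 16.8% of 728 genes rose and 1.51% fell (median 0.28). Between −1 and 0 the shares were 5.7% higher and 7.2% lower of 2861 genes (median −0.06), and between 0 and 1 they were 5.36% higher and 11.9% lower of 4120 genes (median −0.08). Above 1 they were 8.84% higher and 5.54% lower of 1029 genes (median 0.07). Of the 765 genes that fell, 0 were in the class at or below −2, 11 in the next, and 206, 491 and 57 in the 3 classes above −1.

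**Figure D4:**
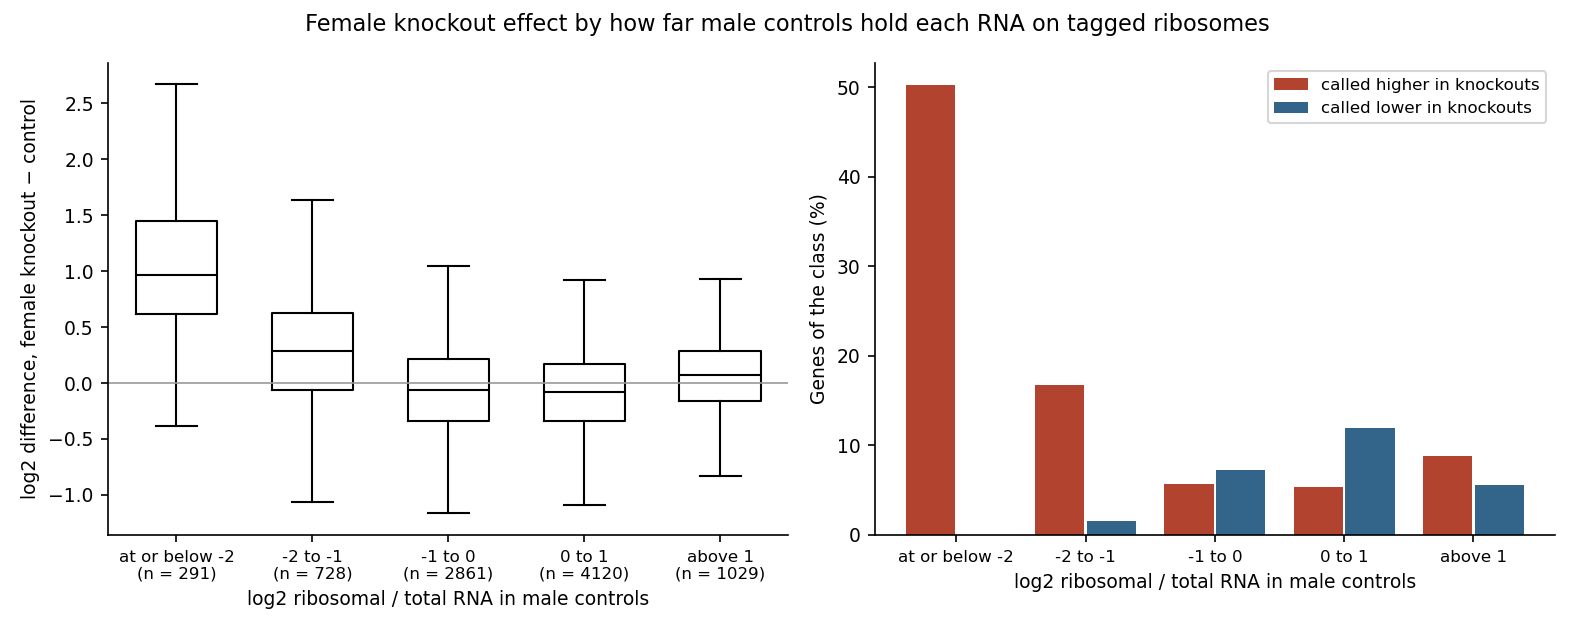
Female knockout effect by the log2 ratio of ribosomal to total RNA in male controls, from RNAs left behind (left) to RNAs held on tagged ribosomes (right). Boxes show the median and quartiles of the log2 difference with whiskers to the farthest gene within 1.5 times the box height, and bars show the percent of genes called higher and lower; 50.2% of the class at or below −2 rose and 0 genes of it fell, with 24 of the 146 higher genes passing the filter on low counts only through the knockouts.

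How the calls stood when these levels were taken into account depended on the gene. With the log2 mitochondrial mRNA sum of each library as a covariate 610 genes were called, with the matrix, fibroblast and endothelial sum 437, and with the percent of reads outside genes 775. Of the 146 genes above, 12, 5 and 41 kept their call under the 3 covariates in that order, and 5 kept it against controls 18 and 19 alone. All 24 genes described first kept theirs under all 3 covariates. They were chosen for low p and groups without overlap in these same libraries, which favours a kept call. Fatty acid oxidation had 15, 8 and 15 of 20 genes lower under these covariates, with medians of −0.73, −0.60 and −0.66, and 6 lower against controls 18 and 19 alone (median −0.57). The matrix list had 6, 2 and 11 of 20 higher (medians 0.78, 0.31 and 1.07), and the slow fibre list 4, 3 and 5 of 12 (medians 0.43, 0.67 and 0.51). Against controls 18 and 19 alone 3 of 20 matrix genes were called, with a median of 1.28, and 0 of 12 slow fibre genes by edgeR, with a median of 0.50. Each covariate moves with genotype in these libraries, and its part in the results was not tested.

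The knockout effect in ribosomal RNA differed between females and males for 312 genes (3.43%), 140 with a higher value in females (1.54%) and 172 with a lower one (1.89%). The count rests on single female controls, falling to 138 without control 15 and 175 without control 14, and rising to 483 without control 18 and 498 without control 19. No male library was left out in turn. Male knockout 2, with 0.16 M counts and 12.15% of reads outside genes, was kept throughout. Of the 8 genes with the lowest p, Zfand5 differed by −0.79 in females and 0.25 in males, a difference of −1.04 (adjusted p = 0.000103). Fn1 differed by 2.33 in females and 0.10 in males (2.23, adjusted p = 0.000364). Rasd2 differed by −1.31 in females and 0.25 in males (−1.56, adjusted p = 0.000364), and Pfn2, an actin-binding profilin, by −0.44 and 0.42 in the same order (−0.86, adjusted p = 0.000364). The cytoskeletal actin gene Actb differed by 0.65 in females and −0.66 in males, and Thbs4, a matrix protein of tendon and injured fibres, by 0.75 in females and −1.20 in males. Thbs4 held 19 to 56.4 CPM in female knockouts and 17.8 to 33.1 CPM in female controls. Wls, which carries Wnt proteins to the surface, differed by −0.24 in females (not called) and −1.41 in males, and the lipid flippase gene Atp9a by 0.85 in females and −0.37 in males (not called). Of the 291 RNAs left behind by male tagged ribosomes, 33 had a higher effect in females and 0 a lower one. The male ribosomal controls that define these RNAs are also part of the sex difference. In males the mitochondrial mRNA sum held 1150 to 16900 CPM in knockouts (median 1420) and 1280 to 7950 CPM in controls (median 1780).

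**Figure D5:**
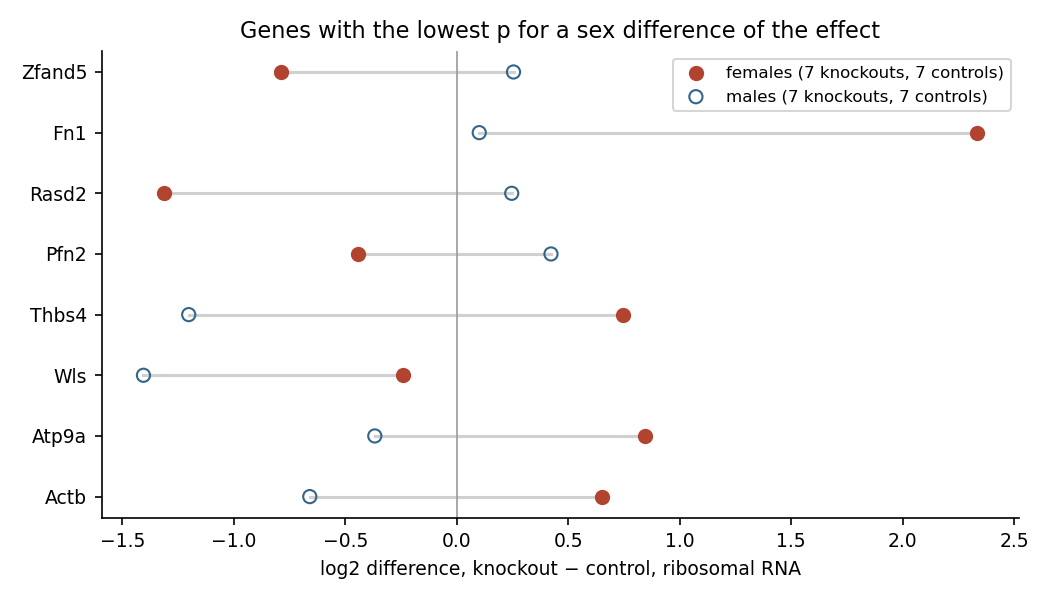
Log2 difference, knockout minus control, in ribosomal RNA of females (filled points) and males (open circles) for the 8 genes with the lowest p for a difference between the sexes, from 7 knockouts and 7 controls of each sex. Zfand5, Rasd2 and Pfn2 lie below 0 in females and above 0 in males, and Thbs4, Atp9a and Actb the other way.

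The effect differed between ribosomal and total RNA of females for 302 of 11810 genes (2.56%), 189 with a higher value in ribosomal RNA (1.6%) and 113 with a lower one (0.957%). Among the genes with the lowest p, Xist (2.95), Kcnq1ot1 (3.09) and Neat1 (1.66) are nuclear RNAs, Myh11 (2.78) is a myosin of smooth muscle and Fn1 (1.71) is a matrix gene. Myh11 held 7.54 to 36.7 CPM in knockout and 0 to 4.49 CPM in control ribosomal libraries, and 16.1 to 40.3 CPM in knockout and 21.6 to 41.1 CPM in control total libraries. Rock1 (1.10) and Xirp2 (1.03), the muscle actin-binding gene, were also among them. All 7 mitochondrial mRNAs, 5 of 6 nuclear RNAs and 9 of 20 matrix genes differed between RNA types, against 1 of 20 fatty acid oxidation genes, 0 of 12 PPAR targets and 0 of 15 glucocorticoid-responsive genes. The count fell to 113 without control 15, 163 without knockout 2, 186 without control 17, 193 without knockout 12 and 197 without control 14. Only ribosomal libraries were left out.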

How the data were processed

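The deposited table holds whole counts per gene and library, made by the authors from 3′ tag reads of 50 bp (500 ng of RNA per library) with UMI-tools, STAR and HTSeq on GRCm39, per the submitters' processing notes, which also name DESeq2 1.40.1 and R 4.3.0. Of 57010 genes, 52029 matched a gene table of GRCm38 for symbols (97.56% of counts); 5 summary lines entered neither library sizes nor tests, 0 sample columns were unused and 0 pairs of libraries were identical. All 28 ribosomal libraries were fitted together with 4 group means in edgeR 4.0.16 (R 4.3.3; filterByExpr, TMM, quasi-likelihood F-test, Benjamini-Hochberg adjusted p under 0.05), and the female ribosomal and total libraries together for the difference between RNA types. CPM used TMM-scaled library sizes. Marker sums (log2 of summed CPM plus 1) and the percent of reads outside genes were tested by exact two-sided permutation of the 14 libraries, adjusted over 16 measures. Shallower libraries give less precise values, and all errors come from the spread between libraries of different mice. The fit was tested on simulated data. Untranslated regions came from GENCODE M21 (GRCm38).

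Genes were named by rule: Elavl1, the 12 higher and 12 lower with the lowest p among called genes of at least 10 CPM whose groups did not overlap, up to 4 members of lowest p per list, and the 8 of lowest p for each difference; a few genes the rule chose are not reported here. The libraries, lists and rules were chosen with earlier results of these data known. Knockouts and controls share no mouse number. The labels give the same number to the ribosomal and total library of 1 mouse, so the RNA type difference was also fitted with the mouse as a block. The mean correlation of paired deviations was 0.184 in knockouts (−0.0872 to 0.562) and 0.0557 in controls (−0.0987 to 0.275).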

Additional observations from a re-analysis of the deposited data

Results flagged for a closer look

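Some single libraries lay far from the rest of their group of 7 (a gap to the nearest library, divided by the group's range, above Dixon's 95% critical value). Chance alone flags about 1 in 20 groups. Control 19 was low for Mss51 (58.7 CPM) and for Tanc1 (36.7 CPM). Knockout 9 was high for Tanc1 (30.2 CPM) and for Cdkn1a (166 CPM). Knockout 5 was low for Atcayos (255 CPM), high for Rasd2 (87.8 CPM) and high for the summed liver transcripts (289 CPM). Control 21 was high for Fkbp5 (65.9 CPM) and for the summed smooth muscle markers (281 CPM).

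The effect in females differed from that in males, on the log2 scale and by a test of the difference, by −1.04 for Zfand5, 2.23 for Fn1, −1.56 for Rasd2, −0.86 for Pfn2, 1.95 for Thbs4, 1.16 for Wls, 1.21 for Atp9a and 1.31 for Actb. In females the effect in ribosomal RNA differed from that in total RNA by 1.71 for Fn1, 2.95 for Xist, 1.66 for Neat1, 2.78 for Myh11, 1.10 for Rock1, 3.09 for Kcnq1ot1 and 1.03 for Xirp2. The genes were chosen by lowest p in each family.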

How the results depend on the processing

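Of 1533 genes called in female ribosomal RNA, RLE size factors gave 1512, no filter beyond 1 count 1866, DESeq2 1548 and limma-voom 1923. The 14 libraries alone gave 936, the mitochondrial mRNA covariate 610, the matrix, fibroblast and endothelial covariate 437 and the covariate of reads outside genes 775. Alternatives chosen after seeing the data gave 240 against controls 18 and 19 alone (64 higher, 176 lower), 998 without knockouts 2, 5 and 12, 2211 without controls 18 and 19 and 1081 with log2 depth as a covariate. Under the mitochondrial covariate 278 were higher and 332 lower. Leaving out 1 female ribosomal library gave 1125 (without control 15) to 1764 (without control 19) genes. It gave 138 to 498 for the sex difference and 113 to 439 (without knockout 10) for the RNA type difference. For the marker measures it gave 11 (without knockout 2) to 15 of 16. Male and total libraries were not left out 1 at a time. The RNA type difference gave 488 genes with DESeq2 (360 higher, 128 lower) and 243 with the mouse as a replicate block, under which its named genes all stayed called. The cause of these moves was not tested.

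The 24 genes described first kept their call in 642 of 648 combinations of gene and alternative, with 0 reversed. They were chosen for low p and groups without overlap in these same libraries, so kept calls follow in large part from the choice. The 6 lost, all against controls 18 and 19 alone, were Metrn, Col1a2, Myh7, Trim44, Ptp4a3 and Fkbp5. Signs turned, with no call, against controls 18 and 19 alone for Klf15 (0.10), Nr1d2 (0.17), Ppargc1a (0.54) and Myod1 (0.60), under the mitochondrial covariate for Thbs4 (−0.0295), and under the matrix covariate for Actb (−0.00418), Pecam1 (−0.15), Cdh5 (−0.36), Esam (−0.11), Mrc1 (−0.27), mt-Cytb (−0.0322) and Ptbp1 (−0.17).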
